A study of Mus musculus with 8 samples.

Results

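The genes described here are 10 genes by which dendritic cells and their subsets are recognised, namely Batf3, Zbtb46, Flt3, Xcr1, Clec9a, Itgae, Cd209a, Mgl2, Siglech and Ccr7. They were taken as a list of names and matched to the array by transcript accession, which gave 16 probes among the 56605 on the array. In all 10 genes a probe cleared background in both mice of some group, as it did for 28992 genes or unnamed transcripts in all, and 9 of them were above background on all 8 arrays, the exception being Xcr1. The lungs came from 8 female BALB/c mice that arrived at 4 weeks of age, were housed for 2 weeks and then ate their feed freely for 70 days. NT mice received standard feed and no allergen. Ctrl-F mice received standard feed, Cap-F mice feed with carbonate apatite particles lacking oligodeoxynucleotide, and ODNcap-F mice feed with such particles carrying a CpG-oligodeoxynucleotide. These 3 groups were all sensitized to ovalbumin (OVA) by injection with an aluminum adjuvant and then challenged with OVA aerosol, so NT differs from Cap-F and ODNcap-F in feed as well as in allergen. Each group held 2 mice, whose whole-lung RNA was hybridized to 1 single-color array each.

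Dendritic cells take up antigen and present it to T cells. They arise under the growth factor Flt3 ligand and fall into conventional type 1 cells (cDC1), which depend on the transcription factor Batf3 and cross-present antigen to CD8 T cells, conventional type 2 cells (cDC2), which present antigen to helper T cells and in the airways are known for starting Th2 responses to allergens, and plasmacytoid cells (pDC), which secrete type I interferon. After activation they leave the tissue for the lymph node along gradients of the ligands of Ccr7. Several of the 10 genes are not exclusive to dendritic cells: Batf3, Itgae and Ccr7 are also transcribed in T cells, Flt3 in progenitors, Mgl2 in macrophages and Zbtb46 in endothelium. Whole-lung RNA cannot tell which cells made a transcript, nor more cells of a type from more RNA per cell.

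Each value below is the log2 intensity of a gene's brightest probe after quantile normalization, with mouse 1 before mouse 2. A gene is called where the limma fit gave a Benjamini-Hochberg adjusted p under 0.05 over all probes together with a fold change over 2. Batf3, Flt3 and Xcr1 were called higher than NT in all 3 OVA-challenged groups, and no member was called lower. That is 3 of 10 higher, where the share of all genes tested was 10.5% for Ctrl-F, 9.74% for Cap-F and 9.86% for ODNcap-F, and 0 of 10 lower, where it was 12.2%, 9.87% and 10.8%. Xcr1 was kept only through Ctrl-F, the only group with both mice above background for it. Among the 9 members above background on all arrays, 2 were called higher in each group (Batf3 and Flt3). The share of all genes under that filter was not counted. By adjusted p alone, 5 members were higher in each group (Batf3, Flt3, Xcr1, Itgae and Mgl2) and Zbtb46 and Siglech were lower, joined in Cap-F by Cd209a. The falls of Siglech did not pass with scaling to the 75th percentile, nor that of Cd209a without NT mouse 2 or either Cap-F mouse. The same rule found 26.2%, 24.1% and 25.1% of all genes higher and 35.7%, 32.4% and 34.9% lower, beside 5 of 10 members higher and 2, 3 and 2 of 10 lower. The median log2 change of the members was 0.45, 0.51 and 0.44, where the median over all genes was -0.12, -0.11 and -0.12. These 3 comparisons share the same 2 NT mice and are not independent of each other.

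The promoters of the 3 called genes are shown because these genes moved together against NT. Each is the stretch of 250 bases before the RefSeq start in build GRCm38.p6, written 5′ to 3′ on the gene's own strand, with the match to TTCNNNGAA in capitals.
Batf3, chr1:191098164-191098413, plus strand: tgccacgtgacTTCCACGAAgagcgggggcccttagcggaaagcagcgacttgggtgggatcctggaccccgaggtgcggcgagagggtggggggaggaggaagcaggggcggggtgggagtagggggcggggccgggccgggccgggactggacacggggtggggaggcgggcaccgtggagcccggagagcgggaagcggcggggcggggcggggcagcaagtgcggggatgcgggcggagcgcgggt
Flt3, chr5:147400490-147400739, minus strand: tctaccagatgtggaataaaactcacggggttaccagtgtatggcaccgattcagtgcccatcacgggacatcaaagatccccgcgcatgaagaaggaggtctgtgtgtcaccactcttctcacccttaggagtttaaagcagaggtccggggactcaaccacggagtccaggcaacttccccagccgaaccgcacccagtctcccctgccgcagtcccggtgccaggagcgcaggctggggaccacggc
Xcr1, chr9:123862030-123862279, minus strand: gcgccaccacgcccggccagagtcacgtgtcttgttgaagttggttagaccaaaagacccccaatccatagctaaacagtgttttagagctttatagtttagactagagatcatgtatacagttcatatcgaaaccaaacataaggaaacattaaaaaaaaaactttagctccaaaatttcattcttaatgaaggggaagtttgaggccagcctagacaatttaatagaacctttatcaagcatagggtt
The upstream sequences were searched on both strands for TTCNNNGAA, which STAT factors bind, for TGANTCA, the AP-1 element that Batf proteins bind together with Jun proteins, and for a pair of GAAA stretches with any 2 bases between them, as in interferon-stimulated response elements. Entries existed for 8 of the 10 members. The Batf3 match begins at position -239 from the start, and Siglech held the same motif, where 7.02% of 32851 promoters did. TGANTCA was found in Zbtb46 alone, against 6.75% of all promoters, and the GAAA pair in no member, against 2.98%. The Flt3 and Xcr1 stretches held none of the 3. Such a match describes the letters only.

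**Figure D1:**
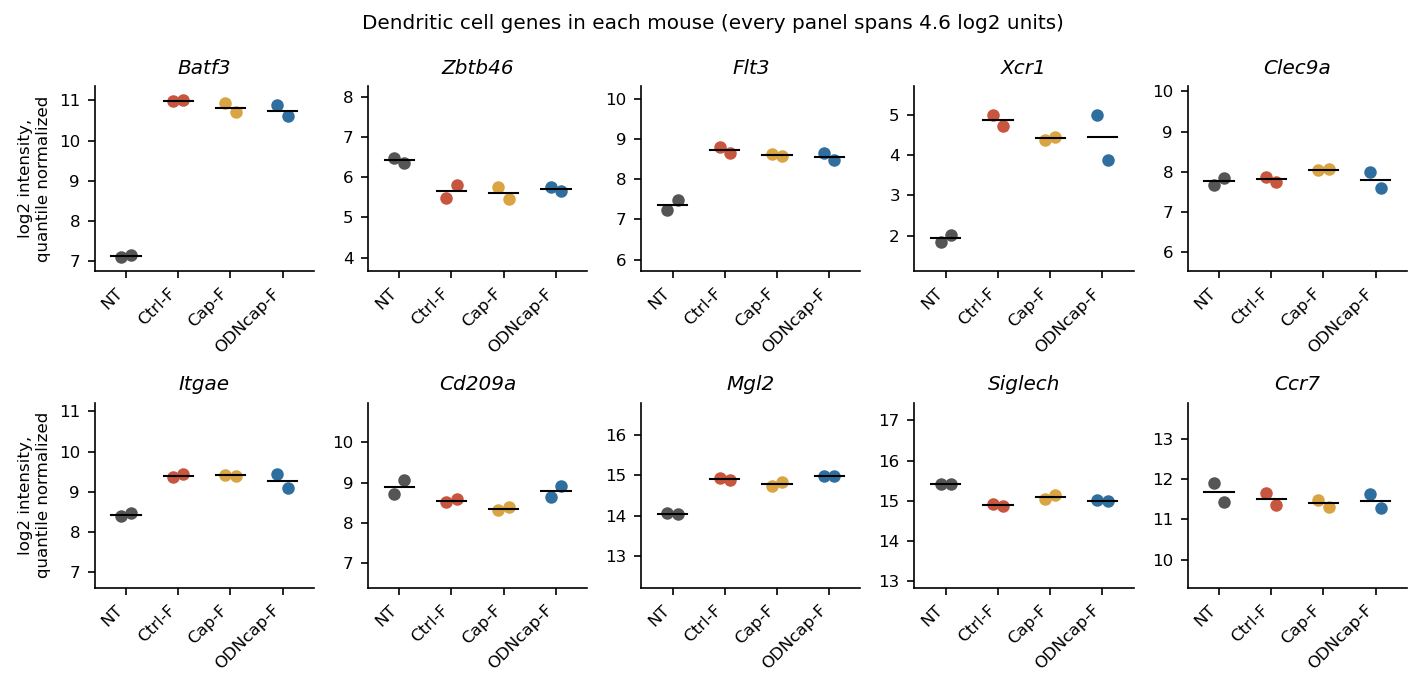
Log2 intensity after quantile normalization (y axis) of the brightest probe of each of the 10 genes in each mouse (points, 2 per group), with the group mean as a line; every panel spans the same height on the log2 scale. Batf3 rises from 7.11 and 7.15 in NT to between 10.61 and 11.01 in the 6 OVA-challenged mice, while Ccr7 overlaps between NT and all 3 groups.

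Batf3, the basic leucine zipper factor required for cDC1 development, changed more than any other member measured above background in NT. Its values were 7.11 and 7.15 in NT, then 10.98 and 11.01 for Ctrl-F, 10.93 and 10.70 for Cap-F, and 10.88 and 10.61 for ODNcap-F. All 6 challenged mice lay far above both NT mice, and the 3 challenged groups lay close together. The fold change over NT was 14.5 for Ctrl-F, 12.9 for Cap-F and 12.3 for ODNcap-F (log2 3.86, 3.69 and 3.62, each with SE 0.12). The limma adjusted p was 9.76e-06, 1.27e-05 and 1.28e-05. Zbtb46, a zinc finger factor of the conventional dendritic cell lineage, went the other way. It read 6.48 and 6.36 in NT, then 5.49 and 5.82 for Ctrl-F, 5.75 and 5.45 for Cap-F, and 5.76 and 5.67 for ODNcap-F. Both NT mice exceeded every challenged mouse. The fitted log2 change was -0.77, -0.82 and -0.70 (SE 0.15; limma adjusted p 0.00546, 0.00471 and 0.00797), short of 2-fold. With normexp background correction it was -0.38, -0.40 and -0.34 and still passed (limma adjusted p 0.00582, 0.0052 and 0.01). A dimmer Zbtb46 probe had changes of -0.41, -0.77 and -0.49, of which only that in Cap-F passed (limma adjusted p 0.158, 0.0269 and 0.106).

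Flt3, the receptor tyrosine kinase for Flt3 ligand, was the other called member measured above background on every array. It read 7.24 and 7.49 in NT, then 8.80 and 8.64 for Ctrl-F, 8.62 and 8.58 for Cap-F, and 8.65 and 8.47 for ODNcap-F. The lowest challenged mouse stood well clear of the highest NT mouse. Flt3 rose 2.56-fold for Ctrl-F, 2.36-fold for Cap-F and 2.29-fold for ODNcap-F (log2 1.36, 1.24 and 1.20, SE 0.12; limma adjusted p 0.000242, 0.000398 and 0.000419). The 95% intervals of the last 2 reach below 2-fold, down to log2 0.95 and 0.91. Flt3l, the ligand itself, stayed between 9.996 and 10.43 in the challenged mice, against 10.05 and 10.12 in NT. Its change was 0.00 in Ctrl-F and 0.04 in ODNcap-F (limma adjusted p 0.991 and 0.767), and it was 0.31 higher in Cap-F (limma adjusted p 0.038).

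Of the 3 surface markers of cDC1, Xcr1 and Itgae were higher than NT by adjusted p and Clec9a did not pass. Xcr1, the chemokine receptor that defines these cells, gave 1.84 and 2.02 in the NT mice, where neither array had it well above background. It gave 4.995 and 4.73 in the Ctrl-F mice, both above background. The Cap-F mice gave 4.39 and 4.45 and the ODNcap-F mice 4.99 and 3.88, with 1 mouse of each group above background. Every challenged mouse lay above both NT mice. With NT set to the lowest signal that counted as above background on its arrays, Ctrl-F was 2.36-fold higher. This is no strict bound, since a probe above that lowest signal can still fail to count. The Cap-F values both exceeded the lowest such signal on their arrays (4.18 and 3.93). No such value is given for Cap-F or ODNcap-F, where 1 mouse of 2 was not well above background. The limma adjusted p was 0.000723, 0.00158 and 0.00143. The calls in Cap-F and ODNcap-F thus rest in part on signals not well above background, and with normexp background correction Xcr1 was called in none of the 3 groups (log2 0.51, 0.40 and 0.43).

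Clec9a, the receptor of cDC1 for actin filaments of dead cells, showed no detectable change. It read 7.68 and 7.84 in NT, then 7.88 and 7.75 for Ctrl-F, 8.04 and 8.07 for Cap-F, and 7.9998 and 7.61 for ODNcap-F. The NT and challenged mice overlapped in Ctrl-F and ODNcap-F, and the Cap-F pair lay slightly above NT. The change was 0.05, 0.29 and 0.04 (SE 0.14; limma adjusted p 0.768, 0.133 and 0.82), with 95% intervals from -0.30 to 0.40, from -0.06 to 0.64 and from -0.31 to 0.39. A 2-fold change thus lay outside all 3 intervals, and the dimmer Clec9a probe moved by 0.16, 0.23 and 0.06.

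Itgae, the alpha chain of the CD103 integrin of cDC1 and of tissue-resident T cells, rose by just under 2-fold. Its values were 8.39 and 8.47 in NT, then 9.36 and 9.43 for Ctrl-F, 9.42 and 9.40 for Cap-F, and 9.44 and 9.09 for ODNcap-F. No challenged mouse overlapped NT. The log2 change was 0.97, 0.98 and 0.84 (SE 0.12; limma adjusted p 0.00103, 0.00113 and 0.00197). Itgae crossed the fold limit when 1 mouse was left out: in Ctrl-F and Cap-F without NT mouse 2, in Ctrl-F without Ctrl-F mouse 1, and in ODNcap-F without ODNcap-F mouse 2. Itgb7, the beta chain that pairs with it, was higher by 0.48, 0.87 and 0.53 (limma adjusted p 0.0113, 0.00126 and 0.00821). Cdh1, the epithelial cadherin bound by this integrin, had changes of -0.19, -0.30 and -0.14, and only the fall in Cap-F passed (limma adjusted p 0.115, 0.0326 and 0.245).

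Of the 2 cDC2 lectins, Mgl2 rose and Cd209a did not. Mgl2, also called CD301b, is a galactose-binding lectin of cDC2 and of alternatively activated macrophages. It read 14.06 and 14.04 in NT, then 14.94 and 14.87 for Ctrl-F, 14.74 and 14.84 for Cap-F, and 14.98 and 14.98 for ODNcap-F. The pairs were tight and NT lay below all of them. The log2 change was 0.85, 0.74 and 0.93 (SE 0.07; limma adjusted p 0.00019, 0.000379 and 0.000166). The dimmer Mgl2 probe went from 7.71 and 7.83 in NT to between 9.56 and 10.01, a change of 1.81, 2.01 and 2.12 that was called in each group (limma adjusted p 5.81e-05, 4.94e-05 and 3.98e-05). Both probes gave a rise, but only the dimmer one exceeded 2-fold. Clec10a, the paralog of Mgl2, rose by 1.73, 1.69 and 2.20 (limma adjusted p 0.000254, 0.000329 and 0.00013). Whether a probe binds both of these close paralogs was not tested.

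Cd209a, the mouse DC-SIGN lectin found on monocyte-derived cells and cDC2, did not rise. It read 8.71 and 9.07 in NT, then 8.52 and 8.58 for Ctrl-F, 8.32 and 8.39 for Cap-F, and 8.65 and 8.92 for ODNcap-F. ODNcap-F overlapped NT, and the other groups lay just below it. The change was -0.33, -0.53 and -0.10 (SE 0.15), and only the fall in Cap-F passed (limma adjusted p 0.0927, 0.0229 and 0.568). That fall did not pass without NT mouse 2 (-0.35), Cap-F mouse 1 (-0.50) or Cap-F mouse 2 (-0.57), with limma adjusted p 0.0997, 0.096 and 0.0655, and without NT mouse 1 the fall in Ctrl-F passed (-0.52, limma adjusted p 0.034). The dimmer Cd209a probe had changes of -0.50, -0.59 and -0.22, none of which passed (limma adjusted p 0.0914, 0.0604 and 0.405). Its paralogs did not all move alike. Cd209b went from 7.57 and 7.86 in NT to between 7.89 and 8.95, and was called for ODNcap-F only. Cd209f read 7.33 and 7.46 in NT and 6.55 and 6.77 in the Ctrl-F mice, while the remaining challenged mice spanned 6.83 to 7.61. Cd209c was not tested, since its probe did not pass the filter. Cd209d and Cd209e rose in every challenged mouse. Cd209e went from 4.46 and 5.13 in NT to between 10.01 and 11.05 in the challenged mice (log2 change 5.56, 5.22 and 5.94, with limma adjusted p 4.51e-05, 6.45e-05 and 4.11e-05). Cd209d went from 7.83 and 7.99 to between 10.18 and 11.34 (log2 change 2.95, 2.52 and 3.27, with limma adjusted p 0.000138, 0.000279 and 0.000114).

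Siglech, the sialic acid-binding lectin that marks mouse pDC, was lower in all challenged mice after quantile normalization. It read 15.41 and 15.43 in NT, then 14.92 and 14.86 for Ctrl-F, 15.05 and 15.15 for Cap-F, and 15.02 and 15.00 for ODNcap-F. NT stood above every challenged mouse by a small margin. The log2 change was -0.53, -0.32 and -0.41 (SE 0.07; limma adjusted p 0.00105, 0.00926 and 0.00308), below 2-fold in every interval. With scaling to the 75th percentile the change was only -0.17, -0.07 and -0.08, and none passed (limma adjusted p 0.0656, 0.404 and 0.372). Without Cap-F mouse 1 the change in Cap-F was -0.27 (limma adjusted p 0.0571). The probe used lay at the 99.11th percentile of signal on the arrays, while the other Siglech probe was not well above background on any array. Whether the brighter probe measures Siglech alone was not tested. Tyrobp, the adaptor through which Siglec-H signals, rose by 1.19, 1.08 and 0.98 (limma adjusted p 0.000131, 0.000218 and 0.000289).

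Ccr7, the receptor that guides mature dendritic cells and naive T cells to lymphoid tissue, showed no detectable change. It read 11.92 and 11.44 in NT, then 11.65 and 11.36 for Ctrl-F, 11.49 and 11.32 for Cap-F, and 11.62 and 11.30 for ODNcap-F. The 2 NT mice differed from each other more than the group means did, and NT overlapped each challenged group. The change was -0.17, -0.27 and -0.22 (SE 0.20; limma adjusted p 0.487, 0.292 and 0.388), with every 95% interval inside 2-fold. Of its ligands, Ccl19 rose by 1.02, 1.503 and 1.18 (limma adjusted p 0.00112, 0.000317 and 0.00069), while Ccl21a had changes of -0.50, 0.15 and -0.38, none of which passed (limma adjusted p 0.0963, 0.578 and 0.18).

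**Figure D2:**
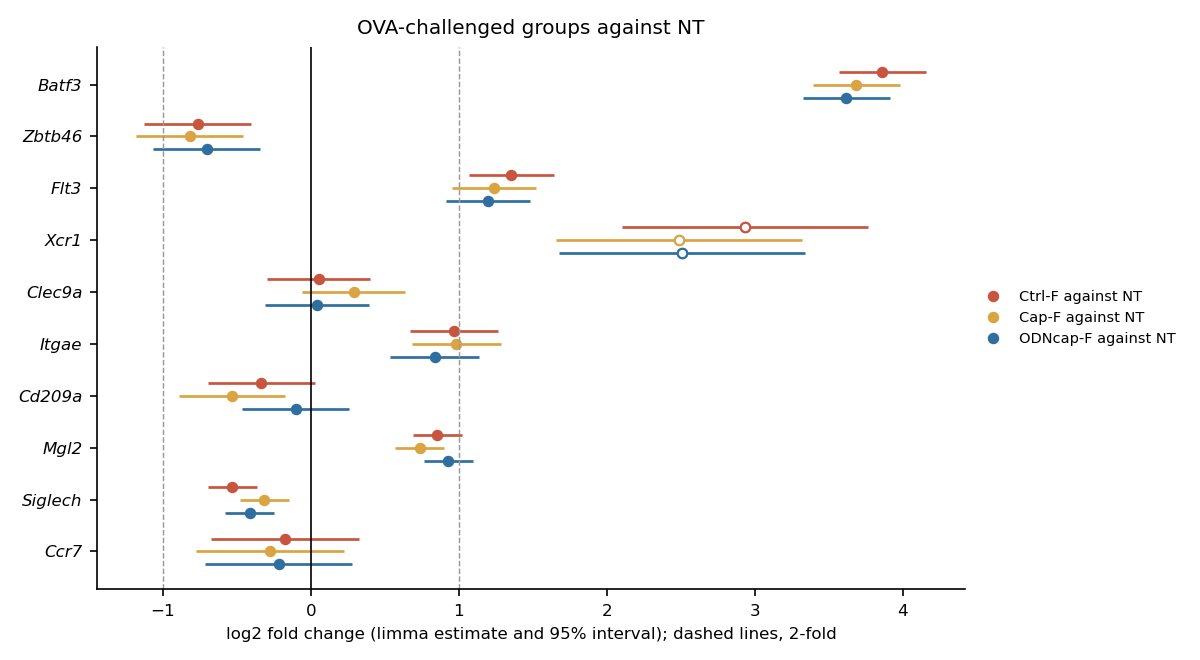
Log2 fold change against NT (x axis, limma estimate as a point and 95% interval as a line) for each of the 10 genes (y axis), with 1 color per challenged group; dashed lines mark 2-fold, and open points mark Xcr1, which was not above background in NT, so that its estimate is no bound. Batf3 stands apart at 3.62 to 3.86, and Zbtb46 and Siglech lie below 0 in all 3 groups.

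Counted over the 6 challenged mice against both NT mice, 5 members were higher in every challenged mouse (Flt3, Xcr1, Itgae, Mgl2 and Batf3), 2 were lower in every one (Zbtb46 and Siglech, both after quantile normalization) and 3 overlapped (Clec9a, Cd209a and Ccr7). Over all genes tested, 28.9% lay above both NT mice in all 6 and 40.6% lay below. Of the members counted, Xcr1 was kept only through the Ctrl-F mice.

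**Figure D3:**
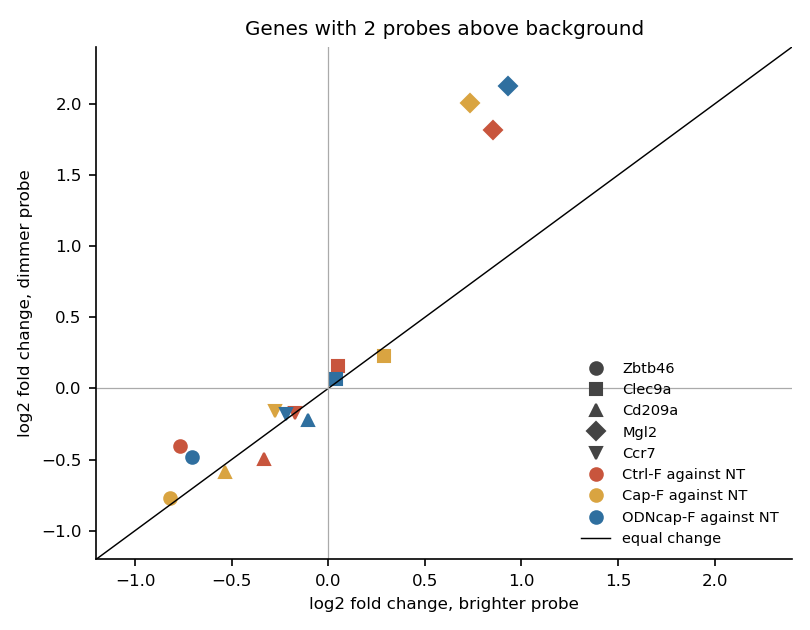
Log2 fold change against NT of the dimmer probe (y axis) against that of the brighter probe (x axis) for the 5 genes with 2 probes above background; color gives the group, shape the gene, and the line equal change. Mgl2 lies far above the line, at 1.81 to 2.12 against 0.74 to 0.93, and the other 4 genes lie closer to it.

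The study asked whether feed with CpG particles alters the response to the allergen, which ODNcap-F against Ctrl-F and against Cap-F addresses. No member was called in ODNcap-F against Ctrl-F, ODNcap-F against Cap-F or Cap-F against Ctrl-F, where 0%, 0.00345% and 0.00345% of all genes were. The rebuilt local-pooled-error test of the study also called 0 members in each, but the share of all genes it called was not counted. With that test the paper reported genes that differed among the challenged groups, cardiac muscle genes among them. The smallest limma adjusted p of a member was 0.76, 0.336 and 0.23. At an unadjusted p under 0.05, limma gave 0, 2 and 1 of 10 members, where 6.78%, 13.4% and 16.6% of all genes passed. These were Cd209a, higher by 0.43 in ODNcap-F than in Cap-F with a 95% interval from 0.07 to 0.79, Mgl2, higher by 0.19 in the same comparison (interval 0.03 to 0.36), and Siglech, higher by 0.22 in Cap-F than in Ctrl-F (interval 0.05 to 0.38). None of these passed the correction. The mice of the 2 groups did not overlap for 4, 4 and 7 of 10 members, against 35.6%, 45.7% and 51.7% of all genes.

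The limma intervals describe differences between groups of arrays, gene by gene and without correction for the number of genes. Cap-F and ODNcap-F lay in another row of the slide than Ctrl-F. Against Ctrl-F the intervals therefore mix slide row with feed and cannot bound a feed effect alone. The intervals stayed inside 2-fold for the 9 members other than Xcr1 in each of the 3 comparisons. For Batf3 the difference between ODNcap-F and Ctrl-F was -0.24, with an interval from -0.54 to 0.05, and for Flt3 it was -0.16, from -0.44 to 0.13. For Xcr1, above background in 1 mouse of 2 in Cap-F and in 1 of 2 in ODNcap-F, no difference between feeds is given.

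**Figure D4:**
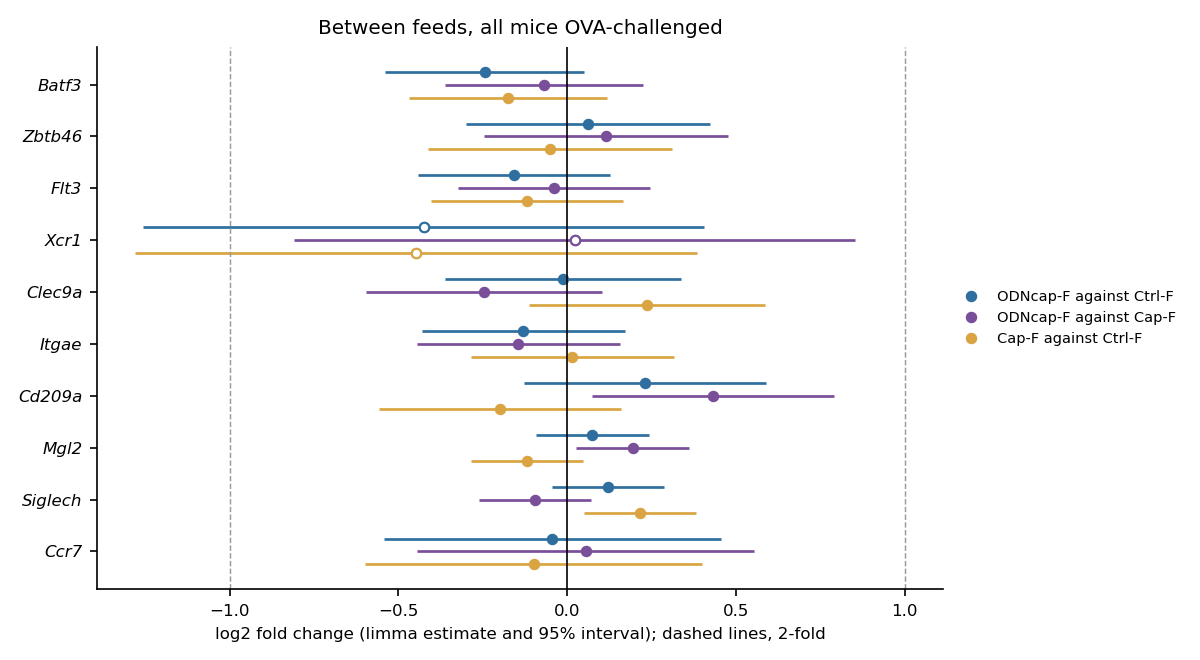
Log2 fold change between feeds among OVA-challenged mice (x axis, limma estimate as a point and 95% interval as a line) for each of the 10 genes (y axis) in 3 comparisons; dashed lines mark 2-fold, and open points mark Xcr1, which was above background in 1 mouse of 2 in Cap-F and in ODNcap-F, so that its estimates are not read. The intervals of the other 9 genes lie inside the dashed lines.

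Other genes of each subset were read from lists of fixed names. Of 12 other cDC1 genes tested, 3 were called higher in Ctrl-F (Wdfy4, Rab7b and Nfil3) and 1 lower (Cadm1), with 2 higher and 1 lower in each of the other groups. The list median was 0.45, 0.48 and 0.53. Nfil3, a factor upstream of cDC1 commitment, went from 9.22 and 9.46 in NT to between 10.99 and 11.43 (log2 change 2.05, 1.69 and 1.91, with limma adjusted p 3.68e-05, 7.94e-05 and 5.13e-05). Wdfy4, which is required for cross-presentation, rose by 1.43, 1.57 and 1.39 (limma adjusted p 0.0003, 0.00026 and 0.000376). Irf8, the factor that acts with Batf3 in these cells, rose by 0.71, 0.93 and 0.66, below 2-fold (limma adjusted p 0.000577, 0.000268 and 0.000855). Cadm1, a cDC1 adhesion molecule also made by epithelium, fell by 1.16, 1.45 and 1.21 on the log2 scale (limma adjusted p 0.00013, 7.55e-05 and 0.00013).

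Of 13 other cDC2 genes tested, 8, 7 and 8 were called higher and 1 lower in the 3 challenged groups in turn, with a median of 1.31, 1.64 and 1.21. The lower one was Klf4, named after its values were seen. The share of all genes was 10.5%, 9.74% and 9.86% higher and 12.2%, 9.87% and 10.8% lower. Clec4a4, among the listed genes called higher, was not well above background in either NT mouse. It was so in only 1 of 2 ODNcap-F mice, and its calls thus rest in part on signals not well above background. Irf4, the factor of cDC2 and also of plasma cells and activated T cells, went from 7.36 and 7.14 in NT to between 11.15 and 11.44 (log2 change 4.10, 4.10 and 3.99, with limma adjusted p 7.02e-06, 8.44e-06 and 8.08e-06). Tnip3 rose by 4.56, 4.21 and 4.28 (limma adjusted p 1.8e-05, 2.66e-05 and 2.42e-05). Sirpa, the inhibitory receptor that marks cDC2 and macrophages, was higher by 1.01, 0.92 and 0.85, past 2-fold in Ctrl-F only (limma adjusted p 0.000111, 0.00018 and 0.000227).

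Of 13 other pDC genes tested, 5, 4 and 4 were called higher, where 10.5%, 9.74% and 9.86% of all genes were. Siglech itself was called in no group. By sign alone, 9 of the 13 were higher and 4 lower in Ctrl-F. Tcf4, Tlr9, Irf7 and Bst2 were called in no group. Their mean levels in NT were 13.69, 10.06, 12.38 and 11.796, against 13.49, 9.9996, 12.38 and 11.95 in Ctrl-F. In Cap-F they were 13.68, 9.86, 12.40 and 12.02, and in ODNcap-F 13.48, 9.98, 12.95 and 12.20. The ODNcap-F mice read 12.41 and 13.50 for Irf7 and 11.99 and 12.41 for Bst2, so mouse 2 was the higher for both. The list median was 0.58, 0.30 and 0.62. Spib, a factor of pDC and of B cells, rose by 2.67, 2.82 and 2.43, and Lag3, an inhibitory receptor of pDC and of activated T cells, rose by 3.12, 3.01 and 2.95. Klk1, Ly6d and Ccr9 rose by 2.03, 1.64 and 1.07 in Ctrl-F, and Ly6d is also a B-lineage marker. The limma adjusted p in Ctrl-F was 4.14e-05 for Spib, 5.19e-05 for Lag3, 0.000138 for Klk1, 0.00208 for Ly6d and 0.000815 for Ccr9. Cox6a2, named after its values were seen, was called lower in Ctrl-F and Cap-F. Its mean level was 11.45 for NT, 9.87 for Ctrl-F, 10.13 for Cap-F and 10.58 for ODNcap-F. Whether pDC or other cells of the lung made its RNA was not tested, so its fall cannot be read as a loss of pDC. Ptcra was below background on every array and Runx2 did not pass the filter.

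Most genes of the mature dendritic cell list rose in the challenged mice. Which cells of the lung made their RNA was not tested. Of 18 tested, 8, 9 and 8 were called higher, none was called lower, and 16 were higher by adjusted p alone in each group. The share of all genes called higher was 10.5%, 9.74% and 9.86%, and that higher by adjusted p alone was 26.2%, 24.1% and 25.1%. Ccl22, among the listed genes called, was not well above background in either NT mouse. The list median was 0.92, 1.02 and 0.89. Pdcd1lg2, the ligand PD-L2, went from 5.17 and 4.93 in NT to between 10.40 and 11.003 (log2 change 5.87, 5.46 and 5.78, with limma adjusted p 4.96e-06, 6.84e-06 and 5.5e-06). Il4i1, a secreted amino acid oxidase, rose by 4.43, 4.47 and 4.33 (limma adjusted p 1.54e-05, 1.71e-05 and 1.76e-05). Cd83, the costimulatory ligand Cd86 and the actin-bundling protein Fscn1 rose by 2.86, 1.71 and 1.76 in Ctrl-F (limma adjusted p 7.54e-05, 4.42e-05 and 4.55e-05). Ccr7, which belongs to the same maturation program in textbook accounts, had a change of -0.17 in that comparison.

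Among 14 ligands and partners of the members, 6, 6 and 4 were called higher and none lower, with a median of 0.41, 0.59 and 0.40. The share of all genes was 10.5%, 9.74% and 9.86% higher and 12.2%, 9.87% and 10.8% lower. Xcl1, the ligand of Xcr1 made by T and NK cells, went from 3.83 and 4.42 in NT to between 5.83 and 6.64, a change of 2.31, 2.38 and 1.84 (limma adjusted p 0.000319, 0.000347 and 0.000797). Batf, a relative of Batf3 that pairs with Irf4 and Irf8, rose by 1.74, 1.69 and 1.63 (limma adjusted p 4.65e-05, 6.06e-05 and 6.35e-05). Syk, a kinase downstream of Clec9a, rose by 1.59, 1.75 and 1.51 (limma adjusted p 0.000145, 0.000127 and 0.000198). Limma called 0 genes of each of these 5 lists in each comparison between feeds. At an unadjusted p under 0.05 it gave 0 to 1 genes per list in ODNcap-F against Ctrl-F, 1 to 4 in ODNcap-F against Cap-F and 0 to 5 in Cap-F against Ctrl-F. The lists held 12 to 18 tested genes each, and 6.78%, 13.4% and 16.6% of all genes passed that threshold.

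**Figure D5:**
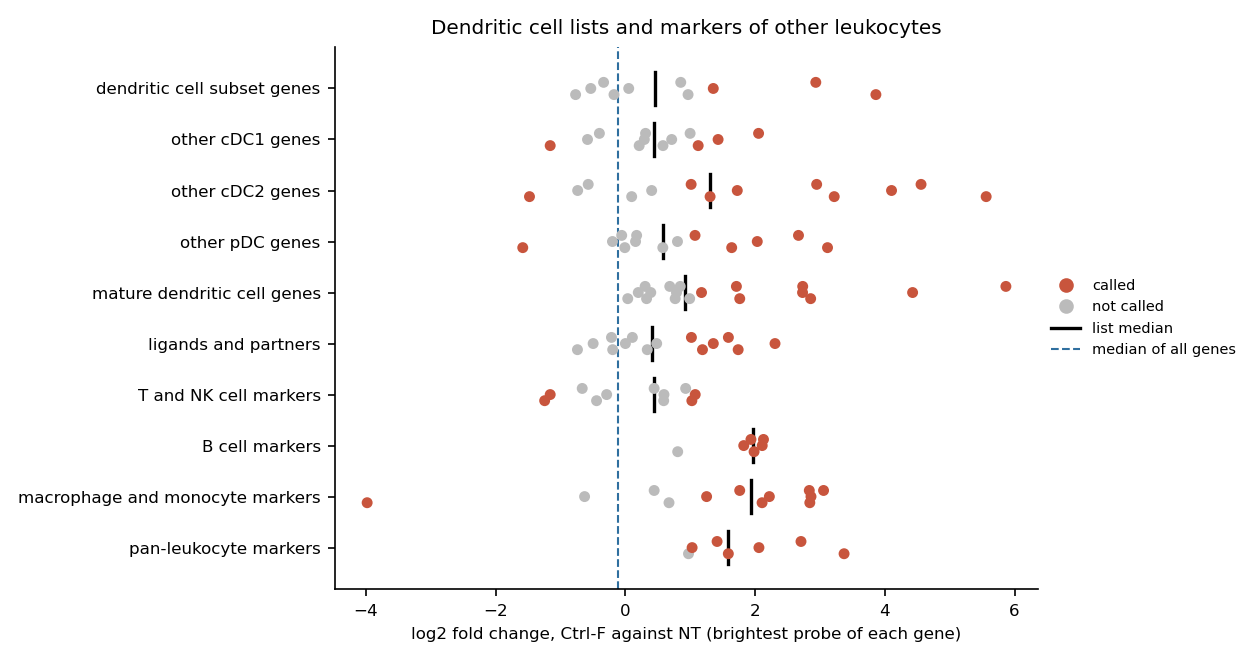
Log2 fold change of each gene's brightest probe in Ctrl-F against NT (x axis) for the 10 dendritic cell subset genes, 5 lists of related genes and 4 lists of markers of other leukocytes (y axis); red points were called, black bars are list medians and the dashed line is the median of all genes, -0.12. The median is 0.45 for the 10 genes, 1.31 for other cDC2 genes and 1.96 for B cell markers.

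Pan-leukocyte, B cell and macrophage markers were mostly higher in the challenged mice, while T and NK cell markers overlapped NT as a list. The mean log2 level of 7 pan-leukocyte genes was 12.07 and 11.78 in NT and between 13.58 and 13.89 in the challenged mice, and 6, 7 and 5 of them were called higher. For 6 B cell genes it was 9.19 and 8.71 against 10.56 to 10.93, with 5 called higher in each group. For 12 macrophage and monocyte genes it was 10.19 and 10.10 against 11.36 to 11.48, with 8 called higher and 1, Marco, lower, which was named after its values were seen. For 11 T and NK cell genes it was 9.58 and 9.25 against 9.38 to 9.70, with 2, 3 and 1 called higher and 2, 1 and 2 lower. By adjusted p alone, 6 of these 11 genes were higher in each group and 4, 2 and 2 were lower. In Ctrl-F, Cd2 and Cd28 were called higher and Klrb1c and Ncr1 lower, named after their values were seen. The part of any of these cells in the members' changes was not tested. All 8 lung tissue genes were well above background on every array, and 2 of them were called lower in each group, Cldn5 and Cldn18, named after their values were seen.

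On the slide, NT and Ctrl-F lay in 1 row and Cap-F and ODNcap-F in the other. Slide row and group cannot be told apart in Cap-F or ODNcap-F against NT or in either of them against Ctrl-F, while Ctrl-F against NT and ODNcap-F against Cap-F each lie within a row. Arrays of 2 mice of a group correlated at 0.9937 to 0.9957 over probes. With 2 mice a group an exact permutation test cannot go below p = 0.333, and the limma p-values measure only the spread between these samples.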

How the data were processed

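Lung RNA of 8 mice was measured on single-color Agilent arrays on 1 slide. Spot intensity values deposited by the authors had been background-subtracted by Agilent Feature Extraction 11.0 and not normalized between arrays. The authors also deposited a table of log2 values, quantile normalized over the 8 arrays, for 32312 probes, all above background on every array. Control spots were dropped, 792 flagged spot values set to missing, and 56605 probes averaged, transformed to log2 and quantile normalized, and 37116 well above background on both arrays of a group were kept. Names came from RefSeq accessions and cover 65.4% of kept probes. A gene was read from its brightest probe.

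The 4 groups were fitted together (limma 3.58.1 in R 4.3.3; 4 residual and 1.96 prior degrees of freedom), adjusted by Benjamini-Hochberg over kept probes. Per array 61.3% to 65.0% of probes exceeded background and no spot was saturated. Precision is limited by the number of arrays. The fold change given for Xcr1 sets NT to the lowest signal well above background on each array. The study's local-pooled-error test was an alternative, with other scalings, background correction, filters, probe rules and left-out mice. Named genes were the 10 members, up to 5 called genes of each related list by p, the members' partners, and up to 3 markers of each other cell list by signal. Of 128 listed genes, 1 had no probe. The members and lists were chosen with earlier results of these data known.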

Additional observations from a re-analysis of the deposited data

How the results depend on the processing

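The 3 calls in each comparison with NT and the 0 calls between feeds held under most alternatives, and no called value changed sign. Normexp background correction left 2 calls for Ctrl-F, 2 for Cap-F and 1 for ODNcap-F against NT, losing Xcr1 in all 3 and Flt3 in ODNcap-F; the cause was not tested. Without a fold limit the counts were 7, 8 and 7, since members short of 2-fold then pass. Taking the mean of a gene's probes added Mgl2 in all 3 groups (4 calls each), and scaling to the 75th percentile added it in Ctrl-F and ODNcap-F. The deposited table, and the filter for probes above background on all arrays, hold no Xcr1, and the deposited table adds Itgae in Cap-F (log2 1.0001). By adjusted p alone, Siglech lost its falls under scaling to the 75th percentile, Cd209a in Ctrl-F passed with normexp correction (-0.33, limma adjusted p 0.033), and Clec9a in Cap-F passed without ODNcap-F mouse 1 or 2 (0.29, limma adjusted p 0.0479 and 0.0478). Leaving out 1 mouse at a time gave 3 to 4 calls against NT, always by adding Itgae, and 0 between feeds. Where 1 mouse of a group was left, its spread was taken from the other groups.

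Mice share only a number across groups: the deviations of same-numbered mice correlated at -0.0123 to 0.161, and the replicate block left 3, 3 and 3 calls against NT and 0, 0 and 0 between feeds. With the block, Cd209a in Ctrl-F passed by adjusted p (-0.33, limma adjusted p 0.0402). Signal near background limits Xcr1, whose differences between feeds could not be read.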
